A study of Mus musculus with 15 samples.

Results

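The A clone was compared with the E1 clone, 2 populations of 4T1 cells that each descend from a single cell, across all genes of their RNA sequencing libraries. 4T1 is a mammary carcinoma line of the mouse. The comparison uses 6 of the 15 libraries of the study, the 3 biological replicates labelled A and the 3 labelled E1, chosen by their population label alone; of 27179 gene identifiers in the files, 12712 had enough counts to be tested. The other 9 libraries are the untransfected parental line, genotype WT, and the clones E2 and M, 3 libraries each. A and E1 share their genotype label, iRFP670 expressing: parental cells received the plasmid pNLS-iRFP670, which codes for a near-infrared fluorescent protein carried to the nucleus, and single cells were then grown out. Each clone is therefore 1 cell's progeny, and a difference between A and E1 cannot be told apart from a difference between any 2 clones of the line. Both clones were kept in G418, an antibiotic that selects for the plasmid, which was withdrawn for the culture that gave the RNA; RNA was taken after 72 h, at about 80% confluency. No treatment separates the groups.

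4T1 cells are an epithelial tumour line that spreads from the mammary fat pad to distant organs, and its single cells give clones that differ from each other in shape, growth and gene expression. Carcinoma cells can lie anywhere between an epithelial state, held by E-cadherin, claudins and the splicing regulators Esrp1 and Esrp2, and a mesenchymal state, with vimentin, fibronectin and transcription factors of the Zeb, Snail and Twist families. Separate programmes set their metabolism: the transcription factor ATF4 of the integrated stress response turns on the import and synthesis of amino acids, and the SREBP factors turn on the synthesis and uptake of cholesterol and fatty acids.

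Both clones expressed epithelial genes; the plasmid's own RNA was not analysed here. Summed over the epithelial markers Krt8, Krt18, Epcam, Cdh1 and Cldn7, the level was 488 to 537 CPM in A and 295 to 403 CPM in E1, where CPM is the count of a gene relative to the scaled size of its library. Krt8 and Krt18 gave most of that sum and were higher in A, while Cdh1 and Cldn7 were lower. Of 28 markers of fibroblasts, macrophages, T and B cells, endothelium, adipocytes and smooth muscle, 14 had no count in any of the 6 libraries and 4 could be tested. Pdgfra, a growth factor receptor of fibroblasts that was higher in A, gave nearly all of their sum in A and most in E1. All 28 summed to 22.8 to 34.4 CPM in A and 3.78 to 7.57 CPM in E1. Without Pdgfra the other 27 summed to 0.615 to 1.76 CPM in A and 0.631 to 2.28 CPM in E1. None of those 27 passed 1.12 CPM in any library.

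Total counts ran from 20143111 to 33141271 per library, but the 6 genes with the most counts, among them an unannotated identifier, Lars2 and both mitochondrial ribosomal RNAs, took 62.6% to 66.6% of them, which left 7540672 to 11454056 counts for all other genes. Both mitochondrial ribosomal RNAs together made up 11.5% to 13.2% of the counts in A and 7.32% to 10.1% in E1, with no overlap. Libraries of a clone resembled each other: Pearson correlations of log2 CPM across genes averaged 0.961 within A and 0.964 within E1, against 0.911 between the clones. On the first principal component of the 15 libraries, which held 24.8% of the variance, the A libraries lay between 66.6 and 74.9 and the E1 libraries between -45.8 and -35.5.

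A and E1 differed in 3767 of the 12712 genes tested, 29.6%, by edgeR's quasi-likelihood test on the fit of all 15 libraries with a Benjamini-Hochberg adjusted p under 0.05, the threshold for every call in the text. Of these, 1905 genes were higher in A (15% of the genes tested) and 1862 lower (14.6%). Both shares are the background for every count of list members below. At a difference of 2-fold or more the balance tipped: 1033 genes were higher in A (8.13%) and 713 lower (5.61%). It tipped further among larger changes, with 403 genes higher and 123 lower at 4-fold or more, and 64 higher against 9 lower at 16-fold or more. The 3 libraries of A lay wholly above or wholly below the 3 of E1 in 5981 genes, 47.1%, and the median log2 fold change over all genes tested was 0.016. In the same fit E2 differed from E1 in 30 genes, M from E1 in 495 and A from the parental line in 3814, so of the 3 comparisons of E1 with another clone, that with A had the most calls. Leaving out any of the 6 libraries gave 2952 to 3145 calls.

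**Figure D1:**
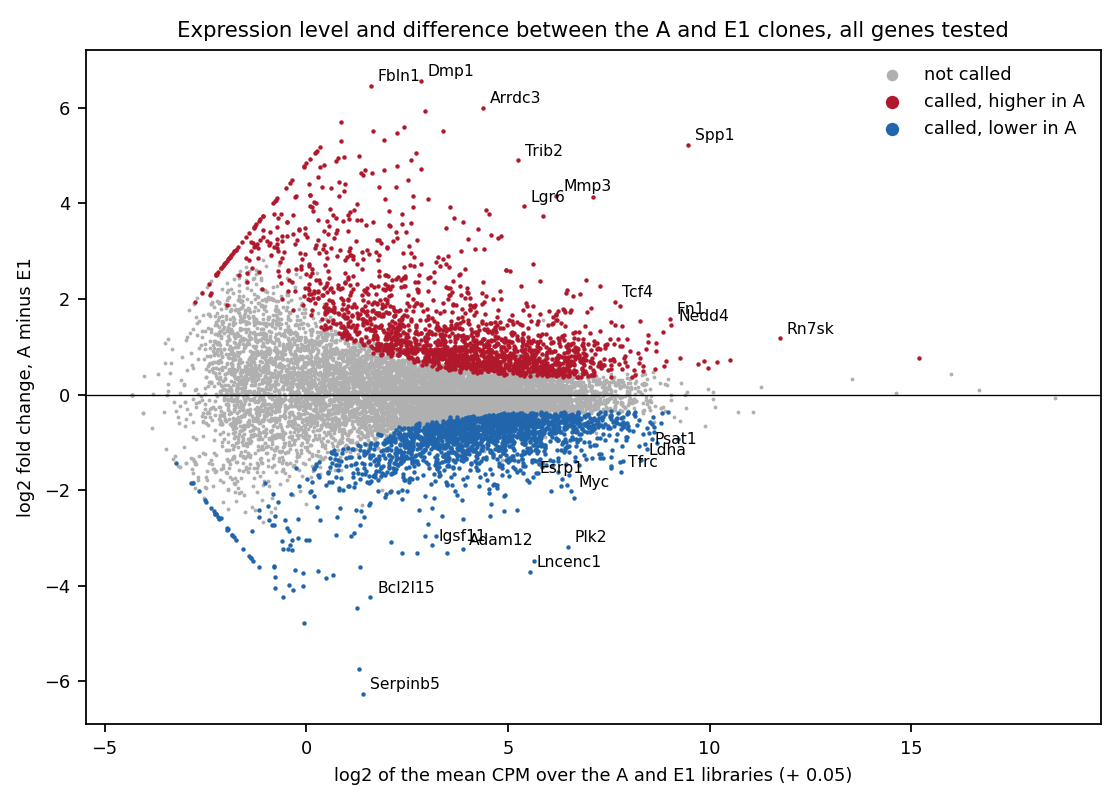
Each point is 1 of the 12712 genes tested. The horizontal axis is the log2 of the mean CPM over the 6 libraries, with 0.05 added, the vertical axis is the log2 fold change of A over E1, and colour marks genes called at an adjusted p under 0.05. Spp1 lies far to the right of the other genes with changes of its size, and the upper fan holds more points than the lower one beyond 4-fold.

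The gene with the highest level among the largest changes was Spp1 (Entrez Gene 20750, chr5:104435111-104441053 of GRCm38), which codes for osteopontin, a secreted phosphoprotein of bone that binds integrins and is also made by many carcinomas. It stood at 1240.0, 1489 and 1390.0 CPM in the A libraries and 38.4, 39.2 and 32.1 CPM in the E1 libraries. Every A library was far above every E1 library. The log2 fold change was 5.23 ± 0.12 (SE, 3 libraries a clone; adjusted p = 6.67e-12), about 37.5-fold. Its level was 116 CPM in the parental line, so that A was higher than its source by 3.57 on the log2 scale, while E1 differed from it by -1.66; both of these values share the parental libraries, as do all such pairs below. Dmp1 (Entrez Gene 13406, chr5:104197575-104214102), a second acidic phosphoprotein of mineralised matrix whose gene lies near Spp1, was close to silent outside A. It gave 10.4, 13.1 and 19.0 CPM in the A libraries and 0.0303, 0.0929 and 0.126 CPM in the E1 libraries, a log2 fold change of 6.56 ± 0.39 (adjusted p = 1.5e-09) that rests on 7 counts in all of E1 against 1334 in A. Of the 6 tested genes of mineralised matrix, 4 were called higher in A and 0 lower, with a median log2 fold change of 1.78; 1 was lower with a replicate block and in a fit of A and E1 alone. The other called members were Ank, which exports pyrophosphate, at 103 ± 5.04 CPM in A and 36.5 ± 3.29 in E1 (mean ± SD, n = 3), and Phex, an endopeptidase of phosphate balance, at 9.30 ± 1.23 CPM in A and 2.17 ± 0.645 in E1; without E1 replicate 1 the adjusted p of Phex was 0.0625. Runx2, the transcription factor of bone cells, stood at 37.1 ± 4.68 CPM in A and 48.3 ± 5.53 in E1 and was not called. The genes of the neighbouring bone proteins Ibsp, Mepe and Dspp had too few counts to be tested.

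Fbln1, which codes for the matrix protein fibulin 1, was not detected in E1. Its levels were 5.12, 4.89 and 8.03 CPM in the A libraries and 0 counts in all 3 E1 libraries, so that A was at least 173-fold higher, taking the 3 counts over the E1 libraries that a count of 0 allows. Arrdc3, an alpha-arrestin that links membrane receptors to NEDD4-type ubiquitin ligases, gave 44.3, 37.4 and 40.9 CPM in the A libraries and 0.847, 0.139 and 0.631 CPM in the E1 libraries. For Arrdc3 the log2 fold change was 5.998 ± 0.66 (adjusted p = 1.62e-09). Trib2, a pseudokinase of the tribbles family, gave 74.8, 69.3 and 76.8 CPM in the A libraries and 2.00, 2.69 and 2.55 CPM in the E1 libraries. For Trib2 the log2 fold change was 4.90 ± 0.14 (adjusted p = 1.32e-13), with no overlap and little spread in either clone. The others of the 15 largest differences with A higher included proteins of the cell surface. Sema6d, a transmembrane semaphorin, stood at 20.6 ± 2.01 CPM in A and 0.399 ± 0.303 in E1, and Aqp1, a water channel, at 9.27 ± 1.88 CPM in A and 0.145 ± 0.0733 in E1. They also included S100a16, a calcium-binding protein (7.36 ± 3.33 CPM in A and 0.114 ± 0.0669 in E1), and Rbpms, an RNA-binding protein (11.7 ± 0.616 CPM in A and 0.299 ± 0.260 in E1). Among enzymes, the glycosyltransferase Galnt15 stood at 12.7 ± 3.58 CPM in A and 0.344 ± 0.405 in E1 and the protease Adamts9 at 9.09 ± 2.65 CPM in A and 0.249 ± 0.252 in E1. Pla2g7, which breaks down platelet-activating factor, stood at 13.7 ± 1.95 CPM in A and 0.469 ± 0.198 in E1. Each of these 7 genes was under 0.5 CPM in E1. Their parental levels ran from 0.178 CPM for S100a16 to 12.1 CPM for Rbpms. For Rbpms, A differed from the parental line by -0.05 and E1 by -4.96 on the log2 scale.

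Serpinb5, the gene of maspin, a serpin of mammary epithelium, showed the mirror image of Fbln1. It gave 4.00, 5.30 and 6.37 CPM in the E1 libraries and 0 counts in all 3 A libraries, at least 162-fold lower in A on the same allowance of 3 counts. The long noncoding RNA Lncenc1 was lower in A by a wide margin, at 6.64, 5.97 and 6.92 CPM in the A libraries and 76.5, 90.1 and 91.8 CPM in the E1 libraries. For Lncenc1 the log2 fold change was -3.71 ± 0.10 (adjusted p = 6.46e-12). Plk2, a polo-like kinase and target of p53, gave 14.1, 21.1 and 17.8 CPM in the A libraries and 134, 187 and 163 CPM in the E1 libraries. For Plk2 the log2 fold change was -3.19 ± 0.22 (adjusted p = 5.19e-10). No library of either clone overlapped with the other in these genes. The 15 largest differences with A lower also held genes of survival and immune signals. Bcl2l15 of the Bcl2 family stood at 0.236 ± 0.0361 CPM in A and 5.69 ± 1.03 in E1, and the cytokine Il24 at 0.881 ± 0.0819 CPM in A and 9.44 ± 0.825 in E1. At the cell surface and outside it, the growth factor carrier Fgfbp1 stood at 1.16 ± 0.340 CPM in A and 12.2 ± 5.47 in E1 and the adhesion molecule Igsf11 at 1.69 ± 0.824 CPM in A and 15.6 ± 3.04 in E1. Hmox1, the haem-degrading enzyme, stood at 0.849 ± 0.490 CPM in A and 7.68 ± 1.81 in E1. The clock repressor Ciart gave 1.69 ± 0.506 CPM in A and 13.7 ± 3.17 in E1, and Acap1, which acts on ARF GTPases, gave 2.07 ± 0.664 CPM in A and 13.9 ± 1.53 in E1. For Lncenc1, Igsf11, Bcl2l15 and Fgfbp1 the parental line stood nearer to A than to E1, at 2.60, 0.347, 0.249 and 0.784 CPM.

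**Figure D2:**
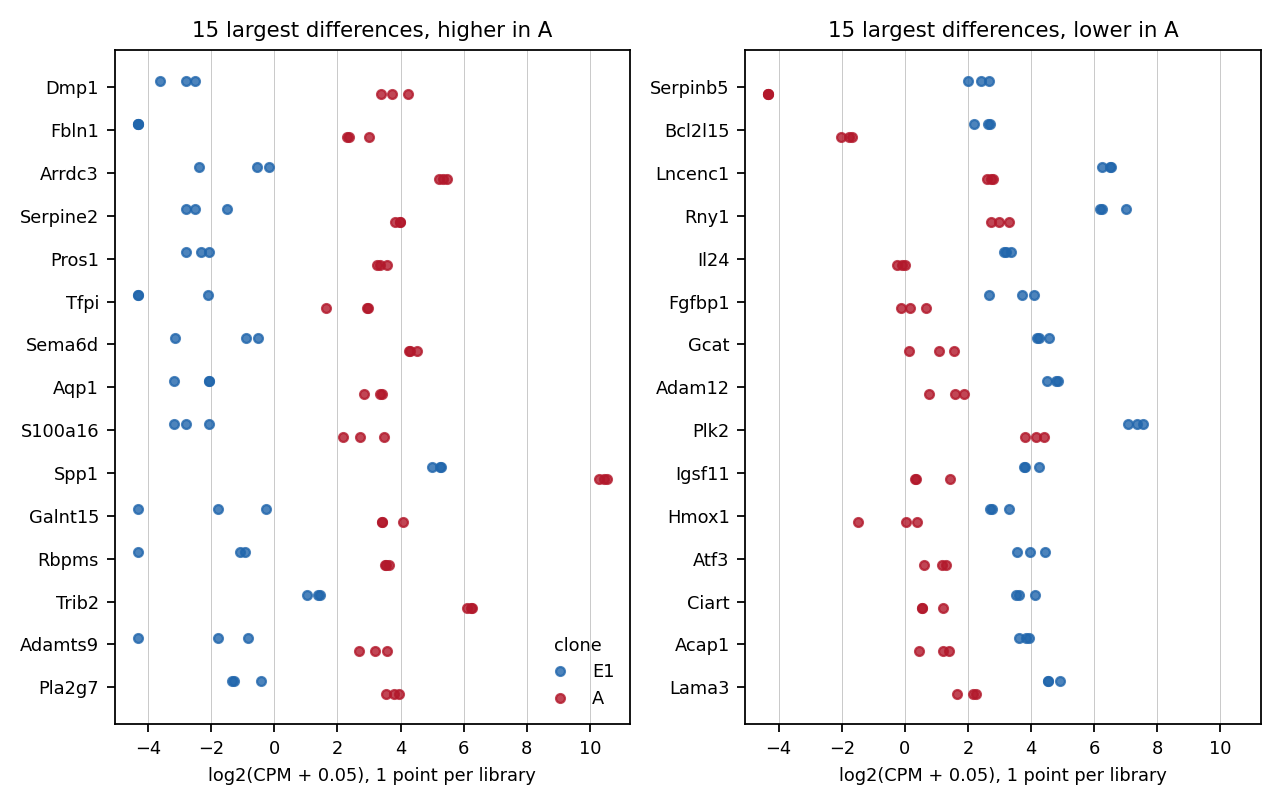
Levels are log2 of CPM with 0.05 added, for the 15 largest differences with A above E1 and the 15 largest with A below E1. The genes had at least 5 CPM in the higher clone. Each point is 1 library and colour marks the clone. The points of A and E1 are apart in every gene shown, with Fbln1 in E1 and Serpinb5 in A at the left edge, where no count was found.

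Genes of proteases and their inhibitors moved in both directions, 16 higher and 9 lower in A of 40 tested, with a median log2 fold change of 0.54; without A replicate 1 the count of lower genes was 5. Inhibitors of coagulation and of serine proteases were among the largest differences with A higher. Serpine2, which codes for protease nexin 1, an inhibitor of thrombin and of plasminogen activators, gave 15.8, 15.7 and 14.1 CPM in the A libraries and 0.303, 0.0929 and 0.126 CPM in the E1 libraries. For Serpine2 the log2 fold change was 5.93 ± 0.37 (adjusted p = 5.19e-10). Against the parental line Serpine2 differed by 0.97 in A and by -4.95 in E1 on the log2 scale. Tfpi, the inhibitor of the tissue factor pathway, stood at 6.12 ± 2.65 CPM in A and 0.0605 ± 0.105 in E1, and Pros1, protein S of the anticoagulant pathway, at 10.4 ± 1.27 CPM in A and 0.144 ± 0.0485 in E1. The level of F3, tissue factor itself, was 0.664 ± 0.399 CPM in A and 3.90 ± 1.64 in E1, a log2 fold change of -2.42. Among proteases, Mmp3 or stromelysin 1, which cleaves matrix proteins, gave 134, 172 and 112 CPM in the A libraries and 6.87, 12.1 and 4.51 CPM in the E1 libraries. For Mmp3 the log2 fold change was 4.16 ± 0.45 (adjusted p = 0.00189). Adam12, a metalloprotease that sheds growth factors, went the other way, at 2.99, 3.59 and 1.66 CPM in the A libraries and 29.2, 22.7 and 27.5 CPM in the E1 libraries. For Adam12 the log2 fold change was -3.24 ± 0.34 (adjusted p = 2.26e-06). The groups did not overlap in Serpine2, Mmp3 or Adam12. Other called members were the lysosomal cathepsins Ctsl (297 ± 46.6 CPM in A and 109 ± 13.7 in E1) and Ctsb (80.1 ± 14.2 CPM in A and 44.0 ± 2.38 in E1). Timp2, an inhibitor of metalloproteases, was higher at 162 ± 13.2 CPM in A and 72.0 ± 6.32 in E1. Mmp9, a gelatinase, was lower at 4.78 ± 1.94 CPM in A and 13.9 ± 3.12 in E1. The call of Mmp9 was lost, with adjusted p up to 0.0684, without A replicate 1 or 3 or E1 replicate 1.

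Matrix genes were called higher in A more often than lower. Of 14 tested collagen chains 9 were higher and 1 lower, with a median log2 fold change of 1.01 against 0.016 over all genes. The basement membrane chains were among them. Col18a1, the precursor of endostatin, gave 265, 271 and 294 CPM in the A libraries and 81.5, 118 and 89.9 CPM in the E1 libraries. For Col18a1 the log2 fold change was 1.52 ± 0.17 (adjusted p = 1.65e-07). Col4a5 gave 69.5, 75.6 and 110.4 CPM in the A libraries and 22, 29.9 and 27.5 CPM in the E1 libraries. For Col4a5 the log2 fold change was 1.69 ± 0.24 (adjusted p = 9.52e-06). Col5a1, a chain of fibrillar collagen, stood at 16.6 ± 1.78 CPM in A and 4.32 ± 1.61 in E1. Col12a1, which decorates collagen fibrils, was the exception, at 2.76 ± 0.288 CPM in A and 9.54 ± 1.28 in E1. Of the other matrix genes 9 of 24 were higher and 3 lower, with a median of 0.45; 5 were lower with no filter on low counts and in a fit of A and E1 alone. Fibronectin, coded by Fn1, gave 787, 680.3 and 861 CPM in the A libraries and 293, 226 and 256 CPM in the E1 libraries. For Fn1 the log2 fold change was 1.59 ± 0.15 (adjusted p = 1.95e-05). Sparc, a collagen-binding matrix protein, gave 35.0 ± 12.6 CPM in A and 6.81 ± 2.24 in E1, and the laminin chain Lamb2 24.4 ± 3.15 CPM in A and 5.92 ± 2.63 in E1. Also lower in A were chains of the laminin that anchors epithelial hemidesmosomes, which count in the basal list below and not among these 24. Lama3 was lower in A, at 4.45, 4.76 and 3.08 CPM in the A libraries and 23.03, 29.9 and 23.02 CPM in the E1 libraries. For Lama3 the log2 fold change was -2.61 ± 0.23 (adjusted p = 1.36e-06). Lamb3 was lower as well, at 9.20, 8.90 and 8.64 CPM in the A libraries and 30.7, 43.8 and 37.2 CPM in the E1 libraries. For Lamb3 the log2 fold change was -2.05 ± 0.15 (adjusted p = 2.05e-07). Ccn1, a matricellular target of YAP, was lower at 14.2 ± 4.68 CPM in A and 40.5 ± 5.96 in E1. Thbs1, thrombospondin 1, stood at 526 ± 151 CPM in A and 529.8 ± 54.2 in E1 and was not called; its parental level was 83.2 CPM.

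Epithelial genes split rather than falling as a block. Of 31 tested, 7 were higher and 9 lower in A, with a median log2 fold change of -0.31; without A replicate 2 the higher ones numbered 4. Cdh1, the gene of E-cadherin, gave 21.1, 19.9 and 26.1 CPM in the A libraries and 62.9, 58.6 and 60.3 CPM in the E1 libraries. For Cdh1 the log2 fold change was -1.43 ± 0.12 (adjusted p = 4.11e-06). Esrp1, the regulator of epithelial splicing, gave 23.6, 19.2 and 25.1 CPM in the A libraries and 75.8, 72.5 and 78.1 CPM in the E1 libraries. For Esrp1 the log2 fold change was -1.74 ± 0.12 (adjusted p = 1.28e-09), with no overlap. The desmosomal plaque gene Dsp (31.2 ± 5.06 CPM in A and 80.1 ± 1.52 in E1) and the claudins Cldn7 (3.54 ± 0.610 CPM in A and 9.33 ± 1.85 in E1) and Cldn3 (8.40 ± 1.26 CPM in A and 20.97 ± 4.26 in E1) were lower as well, and so was the keratin Krt19 (3.18 ± 0.603 CPM in A and 8.05 ± 1.495 in E1). Tight junction genes had 5 of 17 members lower, among them the linker Cgn (11 ± 0.943 CPM in A and 21.3 ± 3.11 in E1), and 1 higher. Desmosomes and cadherins as a list had 6 of 15 members lower, among them Pkp4 (23.3 ± 0.275 CPM in A and 56.4 ± 1.64 in E1), and 3 higher. Ctnnb1, beta-catenin, which holds cadherins and acts in WNT signalling, was higher at 554 ± 39.8 CPM in A and 263 ± 33.6 in E1. Against these, the keratin Krt8 gave 193, 212 and 200.0 CPM in the A libraries and 72.7, 101.3 and 113 CPM in the E1 libraries. For Krt8 the log2 fold change was 1.08 ± 0.20 (adjusted p = 0.000337). Its partner Krt18 stood at 245 ± 19.2 CPM in A and 147 ± 44.6 in E1. The call of Krt18 was lost, with adjusted p up to 0.12, without each A replicate and without E1 replicate 1 or 3; the counts of higher luminal genes and keratins, which hold it, fell from 2 to 1 with it. The tight junction gene Ocln (27.3 ± 3.16 CPM in A and 14.7 ± 2.32 in E1) and the surface antigen gene Cd24a (158 ± 15.2 CPM in A and 88.5 ± 10.1 in E1) were also higher. Epcam, the epithelial adhesion molecule, stood at 46.8 ± 1.39 CPM in A and 45.7 ± 1.23 in E1 and was not called.

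On the mesenchymal side 6 of 12 tested genes were higher in A and 1 lower, with a median of 0.75. Vim, the intermediate filament vimentin, gave 422, 566 and 506 CPM in the A libraries and 174, 235 and 224 CPM in the E1 libraries. For Vim the log2 fold change was 1.24 ± 0.18 (adjusted p = 0.00389), and no A library overlapped with E1. Itga5, the fibronectin receptor, was higher at 12.5 ± 1.56 CPM in A and 6.56 ± 1.15 in E1, while Axl, a receptor kinase tied to the mesenchymal state, stood at 664 ± 12.4 CPM in A and 669 ± 52.6 in E1 and was not called. The lower gene was the collagen receptor Ddr2 (239 ± 9.65 CPM in A and 319.5 ± 26.6 in E1), whose call was lost, with adjusted p up to 0.166, without any 1 of the 6 libraries and with RLE size factors. N-cadherin (Cdh2), smooth muscle actin (Acta2) and Zeb1 had too few counts to be tested. Among the 7 tested transcription factors of the epithelial-mesenchymal transition 4 were higher and 0 lower, with a median of 0.78. Tcf4, which codes for the bHLH factor E2-2, gave 299.7, 309 and 356 CPM in the A libraries and 79.7, 80.2 and 91.8 CPM in the E1 libraries. For Tcf4 the log2 fold change was 1.94 ± 0.10 (adjusted p = 8.27e-10). Zeb2 gave 49.1, 55.7 and 53.9 CPM in the A libraries and 35.0, 31.8 and 25.7 CPM in the E1 libraries. For Zeb2 the log2 fold change was 0.78 ± 0.14 (adjusted p = 0.00372). Twist1, a bHLH factor, was higher at 14.4 ± 3.39 CPM in A and 7.25 ± 0.981 in E1. Foxc2 was at 2.12 ± 0.386 CPM in A and 0.558 ± 0.268 in E1 and lost its call without E1 replicate 1 (adjusted p = 0.0635). Snai1 (1.20 ± 0.428 CPM in A and 1.28 ± 0.632 in E1), Snai2 (0.853 ± 0.490 CPM in A and 0.482 ± 0.286 in E1) and Tcf3 (46.0 ± 3.83 CPM in A and 38.5 ± 6.84 in E1) were not called. For Zeb2, A differed from the parental line by -0.11 and E1 by -0.89; for Tcf4 the values were 1.52 and -0.42.

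Markers of the mammary lineages followed neither side. Of 9 tested luminal genes 2 were higher and 3 lower, and of 8 basal genes 2 were higher and 3 lower. Over all genes 15% were higher and 14.6% lower. Gata3, the luminal master factor, stood at 38.7 ± 2.09 CPM in A and 33.6 ± 3.04 in E1, the oestrogen receptor Esr1 at 10.8 ± 0.998 CPM in A and 8.68 ± 0.843 in E1 and Erbb2 at 15.5 ± 0.736 CPM in A and 15.3 ± 3.26 in E1, none of them called. Erbb3, a receptor of neuregulins, was lower at 2.38 ± 0.213 CPM in A and 8.12 ± 1.78 in E1, and Foxa1, a pioneer factor of luminal cells, was lower at 0.472 ± 0.164 CPM in A and 3.97 ± 1.13 in E1. The parental level of Foxa1 was 0.209 CPM. Among basal genes the integrin chain Itga6 was higher (181 ± 8.83 CPM in A and 120.3 ± 5.59 in E1), as was the collagen Col17a1 at a low level (1.96 ± 0.457 CPM in A and 0.312 ± 0.222 in E1). The basal keratin Krt14 was lower, also at a low level (0.107 ± 0.136 CPM in A and 1.37 ± 0.693 in E1). Itgb4, the partner of Itga6 in hemidesmosomes, stood at 39.7 ± 3.06 CPM in A and 29.2 ± 6.58 in E1 and was not called. Neither were the receptor Egfr (0.547 ± 0.40 CPM in A and 1.87 ± 0.578 in E1) and its ligand Areg (3.79 ± 0.637 CPM in A and 3.46 ± 1.26 in E1). In a fit of the A and E1 libraries alone 4 basal genes were higher. Krt5, Trp63 and Kit had too few counts to be tested.

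Cell surface genes of adhesion and guidance were more often higher than lower in A. Of 18 integrin chains 7 were higher and 2 lower (median 0.48). Itgb2, the chain of leukocyte integrins, gave 14.6, 19.8 and 17.1 CPM in the A libraries and 2.12, 2.79 and 2.87 CPM in the E1 libraries. For Itgb2 the log2 fold change was 2.69 ± 0.19 (adjusted p = 2.98e-07). Itga1, a collagen receptor chain, gave 9.18 ± 1.49 CPM in A and 1.38 ± 0.275 in E1, and Itgb5, a vitronectin receptor chain, 28.0 ± 5.49 CPM in A and 10.9 ± 2.38 in E1. The abundant chains Itgb1 (706 ± 58.2 CPM in A and 682 ± 98.0 in E1) and Itgav (297 ± 13.6 CPM in A and 269 ± 20.5 in E1), both chains of osteopontin receptors, were not called. Lower were Itgb6, a chain of epithelial cells (0.1501 ± 0.136 CPM in A and 1.74 ± 0.738 in E1), and Itga2, a collagen receptor chain (36.5 ± 3.16 CPM in A and 55.1 ± 2.65 in E1). The call of Itga2 was lost, with adjusted p up to 0.0884, without A replicate 1 or 2 or E1 replicate 1 or 3, which left 1 lower chain. Of 20 immunoglobulin-type and related adhesion molecules 10 were higher and 3 lower (median 0.62; 5 lower without A replicate 3). Alcam gave 74.8, 50.4 and 45.1 CPM in the A libraries and 10.4, 9.53 and 8.26 CPM in the E1 libraries. For Alcam the log2 fold change was 2.59 ± 0.24 (adjusted p = 1.36e-07). Also higher were the tetraspanin Cd81 at 76.8 ± 8.55 CPM in A and 21.2 ± 1.46 in E1 and the laminin receptor Bcam at 7.67 ± 1.65 CPM in A and 0.479 ± 0.108 in E1. Of 37 genes of ephrin, semaphorin and related guidance 19 were higher and 4 lower (median 0.84; 2 lower without E1 replicate 1). The largest change was that of Sema7a, a membrane-anchored semaphorin that binds integrins, at 41.3, 37.6 and 44.5 CPM in the A libraries and 3.36, 2.83 and 2.14 CPM in the E1 libraries. For Sema7a the log2 fold change was 3.86 ± 0.20 (adjusted p = 5.79e-11). The kinase-dead receptor Ephb6 (8.93 ± 2.37 CPM in A and 1.77 ± 1.23 in E1), the secreted cue Slit2 (10.5 ± 3.47 CPM in A and 2.70 ± 0.636 in E1) and the semaphorin receptor Plxnd1 (19.5 ± 1.96 CPM in A and 5.17 ± 2.66 in E1) were higher too. The co-receptor Nrp1 was lower (17.4 ± 2.54 CPM in A and 46.6 ± 11.8 in E1).

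Of 37 tested genes of TGF-beta and BMP signalling 19 were higher in A and 2 lower, with a median of 0.63. Smad3, the transcription factor that carries the TGF-beta signal, gave 164, 150.0 and 159 CPM in the A libraries and 37.7, 37.8 and 38.1 CPM in the E1 libraries. For Smad3 the log2 fold change was 2.06 ± 0.04 (adjusted p = 8.81e-12). The co-receptor Tgfbr3 gave 7.94, 9.33 and 9.47 CPM in the A libraries and 0.333, 0.418 and 0.378 CPM in the E1 libraries. For Tgfbr3 the log2 fold change was 4.34 ± 0.11 (adjusted p = 3.23e-09). Both receptors of the pathway were higher as well, Tgfbr1 at 156 ± 6.14 CPM in A and 80.3 ± 8.08 in E1 and Tgfbr2 at 109.7 ± 7.03 CPM in A and 70.7 ± 3.88 in E1, as was the ligand Tgfb1 at 9.64 ± 1.81 CPM in A and 3.49 ± 0.181 in E1. Ltbp3, which holds latent TGF-beta in the matrix, stood at 206 ± 7.62 CPM in A and 58.8 ± 3.44 in E1, and Id2, a target of BMP signalling that blocks bHLH factors, at 18.3 ± 3.74 CPM in A and 4.50 ± 0.975 in E1. The lower members were Inhba, a subunit of activin (7.38 ± 2.03 CPM in A and 17.1 ± 2.50 in E1), and Fstl1, a secreted relative of follistatin (0.802 ± 0.482 CPM in A and 2.53 ± 0.741 in E1). Ccn1, which TGF-beta is known to induce, was lower in A, as given above. The number of higher members ran from 14 to 23 over the alternative analyses.

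Of 23 tested WNT genes 9 were higher and 3 lower in A (median 0.60). Lgr6, a receptor of R-spondins and a stem cell marker of skin, gave 85.5, 74.3 and 77.8 CPM in the A libraries and 3.75, 5.53 and 6.02 CPM in the E1 libraries. For Lgr6 the log2 fold change was 3.94 ± 0.21 (adjusted p = 7.27e-10). The secreted antagonist Sfrp1 (26.5 ± 4.16 CPM in A and 6.51 ± 0.570 in E1) and the receptor Fzd1 (6.79 ± 1.19 CPM in A and 2.35 ± 0.123 in E1) were higher. The ligand Wnt7a was lower (15.1 ± 1.57 CPM in A and 49.6 ± 3.21 in E1), while Axin2, a target gene of the pathway, had too few counts to be tested. In the Notch list 6 of 14 were higher and 3 lower (median 0.63). The receptor Notch1 (35.1 ± 8.38 CPM in A and 12.4 ± 1.65 in E1), the ligand Dll4 (6.48 ± 1.11 CPM in A and 0.646 ± 0.642 in E1) and the feedback target Nrarp (22.5 ± 0.974 CPM in A and 6.41 ± 0.987 in E1) were higher. The ligand Jag1 gave 38.9, 30.8 and 39.6 CPM in the A libraries and 111, 132 and 132 CPM in the E1 libraries. For Jag1 the log2 fold change was -1.78 ± 0.14 (adjusted p = 1.59e-08). In the hedgehog list 4 of 9 were higher and 0 lower, with Hhip, which binds hedgehog ligands (27.5 ± 6.76 CPM in A and 2.20 ± 0.987 in E1), and the co-receptor Cdon (32.5 ± 8.36 CPM in A and 11.7 ± 2.48 in E1) as examples. Genes of ERK feedback and output had 8 of 19 members higher and 0 lower (median 0.35). The ERK phosphatase Dusp6 gave 122, 148 and 143 CPM in the A libraries and 52.5, 78.2 and 52.4 CPM in the E1 libraries. For Dusp6 the log2 fold change was 1.18 ± 0.21 (adjusted p = 3.62e-05). The pathway inhibitor Spry1 gave 23.4 ± 1.10 CPM in A and 7.17 ± 1.20 in E1, its relative Spred3 gave 19.0 ± 2.50 CPM in A and 9.94 ± 0.550 in E1 and the ETS factor Etv1 gave 51.1 ± 5.77 CPM in A and 17.6 ± 3.07 in E1. Without A replicate 2, and in a fit of A and E1 alone, 1 member of that list was lower. Of 25 growth factor receptors, ligands and carriers 8 were higher and 5 lower, 3 lower without A replicate 1 or 2 or E1 replicate 1 or 3. Pdgfra was higher (26.4 ± 6.61 CPM in A and 4.24 ± 1.07 in E1). So were the FGF receptor Fgfr2 (77.0 ± 11.6 CPM in A and 27.6 ± 3.32 in E1) and the IGF carrier Igfbp4 (459 ± 54.0 CPM in A and 158 ± 10.2 in E1). Met, the receptor of hepatocyte growth factor, was lower (140.1 ± 12.0 CPM in A and 270.3 ± 27.9 in E1).

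The lists with the largest shares of lower genes concerned amino acids. Of 27 genes for amino acid uptake, serine synthesis, folate carbon units and tRNA charging, all of them tested, 23 were lower in A and 0 higher, against 14.6% lower over all genes. The median log2 fold change was -1.14, and over all alternative analyses 23 or 24 were lower. Of 18 tested genes of the integrated stress response 12 were lower and 2 higher, with a median of -0.99; the higher ones were Atf5 and Cth. Both calls were lost without A replicate 1 or E1 replicate 2, that of Atf5 also without A replicate 3 or E1 replicate 1 and that of Cth without E1 replicate 3, with adjusted p up to 0.125 for Atf5 and 0.0983 for Cth. Many genes of both lists are known targets of ATF4. The RNA of Atf4 itself was lower at 45.5 ± 3.59 CPM in A and 76.4 ± 10.5 in E1. For Atf4 the log2 fold change was -0.75 ± 0.13 (adjusted p = 0.000915). ATF4 acts with C/EBP proteins through a DNA element with the letters TGATGNAA. The bases before a start of 4 of the lower genes are shown because they hold these letters. The letters are in capitals, on either strand (TTNCATCA on the other). The windows are the 250 bases before a RefSeq start in GRCm38.p6, printed 5′ to 3′ on the strand of the gene. A gene can have more than 1 start, and only starts with the letters before them are shown. The start shown for Slc7a11 lies inside the gene, which spans chr3:50364936-50499087.
Asns, chr6:7693210-7693459, minus strand: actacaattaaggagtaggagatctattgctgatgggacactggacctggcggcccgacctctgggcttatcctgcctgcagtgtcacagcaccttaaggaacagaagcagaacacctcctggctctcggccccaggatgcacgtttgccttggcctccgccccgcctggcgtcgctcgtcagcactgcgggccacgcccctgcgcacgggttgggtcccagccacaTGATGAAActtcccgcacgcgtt
Slc7a11, chr3:50443614-50443863, minus strand: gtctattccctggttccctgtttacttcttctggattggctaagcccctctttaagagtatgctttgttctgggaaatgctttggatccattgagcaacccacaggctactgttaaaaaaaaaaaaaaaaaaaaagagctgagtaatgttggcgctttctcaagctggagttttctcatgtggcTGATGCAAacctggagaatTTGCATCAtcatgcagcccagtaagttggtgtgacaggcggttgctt
Chac1, chr2:119350992-119351241, plus strand: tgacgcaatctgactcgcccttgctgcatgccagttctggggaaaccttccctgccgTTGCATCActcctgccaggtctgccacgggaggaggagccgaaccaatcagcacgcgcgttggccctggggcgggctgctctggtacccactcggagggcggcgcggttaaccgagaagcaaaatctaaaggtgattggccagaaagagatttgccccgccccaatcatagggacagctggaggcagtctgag
Atf3, chr1:191183334-191183583, minus strand: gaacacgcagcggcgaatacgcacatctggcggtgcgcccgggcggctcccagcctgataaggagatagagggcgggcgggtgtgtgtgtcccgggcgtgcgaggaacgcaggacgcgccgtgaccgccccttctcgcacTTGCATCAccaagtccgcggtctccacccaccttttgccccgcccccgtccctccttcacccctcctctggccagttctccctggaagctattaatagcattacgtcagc

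The letters begin 23 bases before the start shown in Asns, 193 in Chac1 and 110 in Atf3. Slc7a11 holds them on each strand, 66 and 47 bases before the start shown. Windows of 250 bases before to 50 after each start were searched, and a gene counted if any of its windows held the letters. Of the 20 genes of the amino acid list that were lower and matched by symbol 6 held them, 30%, and 5 of the 11 of the stress list, 45.5%. Among all matched genes of these lists, called or not, they stood in 7 of 22 (31.8%) and 6 of 17 (35.3%). Both lists were chosen to hold many known ATF4 targets, so these shares do not bear on the difference between A and E1. Over all 32851 windows in the RefSeq set the share was 3.97%, or 4.51% of 27025 genes with any window. Of the 14 lower cholesterol genes 8 were matched, and the sterol element TCACNCCAC, searched the same way, stood in 0 of them. It stood in 1.24% of all windows and in 1.44% of all genes, so 0 of 8 tells nothing about these genes. A match describes the letters only, and their absence says only that they are not in this window.

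Asns, asparagine synthetase, gave 51.4, 44.5 and 44.1 CPM in the A libraries and 134, 116 and 132 CPM in the E1 libraries. For Asns the log2 fold change was -1.45 ± 0.10 (adjusted p = 6.86e-08). Slc7a11, the cystine importer, gave 49.0, 42.3 and 40.1 CPM in the A libraries and 116, 161 and 144 CPM in the E1 libraries. For Slc7a11 the log2 fold change was -1.68 ± 0.17 (adjusted p = 4.22e-07). Chac1, which breaks down glutathione, gave 6.51, 5.97 and 4.12 CPM in the A libraries and 14.5, 21.6 and 19.3 CPM in the E1 libraries. For Chac1 the log2 fold change was -1.73 ± 0.26 (adjusted p = 4.97e-07). In each of these genes the lowest E1 library lay above the highest A library. The largest change of the amino acid list was that of Mthfd2, the mitochondrial folate enzyme, at 29.5, 26.5 and 23.2 CPM in the A libraries and 99.6, 111 and 110.3 CPM in the E1 libraries. For Mthfd2 the log2 fold change was -2.02 ± 0.11 (adjusted p = 1.7e-10). Got1, an aspartate aminotransferase (7.33 ± 0.508 CPM in A and 24.2 ± 3.04 in E1), and the glutamine carrier Slc1a5 (11.7 ± 1.15 CPM in A and 37.3 ± 5.88 in E1) were lower too. So were the serine enzyme Psat1 (219.7 ± 8.89 CPM in A and 483 ± 74.4 in E1) and the abundant transporter Slc38a2 (198 ± 8.95 CPM in A and 414 ± 38.6 in E1). The 4 members not called were Aldh1l2, Pycr1, Slc7a3 and Sars. In the stress list Atf3, a factor induced by stress, gave 2.23, 1.47 and 2.40 CPM in the A libraries and 21.6, 15.6 and 11.8 CPM in the E1 libraries. For Atf3 the log2 fold change was -2.97 ± 0.33 (adjusted p = 6.31e-09). Ppp1r15a, which restores translation after stress, gave 8.17 ± 3.22 CPM in A and 40.0 ± 6.58 in E1, and the pseudokinase Trib3 gave 18.5 ± 2.62 CPM in A and 56.8 ± 2.12 in E1. Eif2ak3, the kinase PERK (7.62 ± 1.14 CPM in A and 7.23 ± 0.697 in E1), and Cebpb (23.1 ± 6.83 CPM in A and 22.9 ± 2.73 in E1) were not called. For Asns, A differed from the parental line by -1.40 and E1 by 0.05 on the log2 scale; for Mthfd2 the values were -1.67 and 0.35, and for Trib3 -1.48 and 0.13. Over the amino acid list the median was -1.08 for A and 0.05 for E1, with 23 members lower and 0 higher in A than in the parental line, and 2 lower and 6 higher in E1. Against the parental line, 15.1% of all genes were higher and 14.9% lower in A, and 7.77% higher and 7.35% lower in E1. Gcat, which makes glycine from threonine, was outside the list and among the 15 largest differences with A lower. It stood at 2.00 ± 0.923 CPM in A and 20.4 ± 3.02 in E1.

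**Figure D3:**
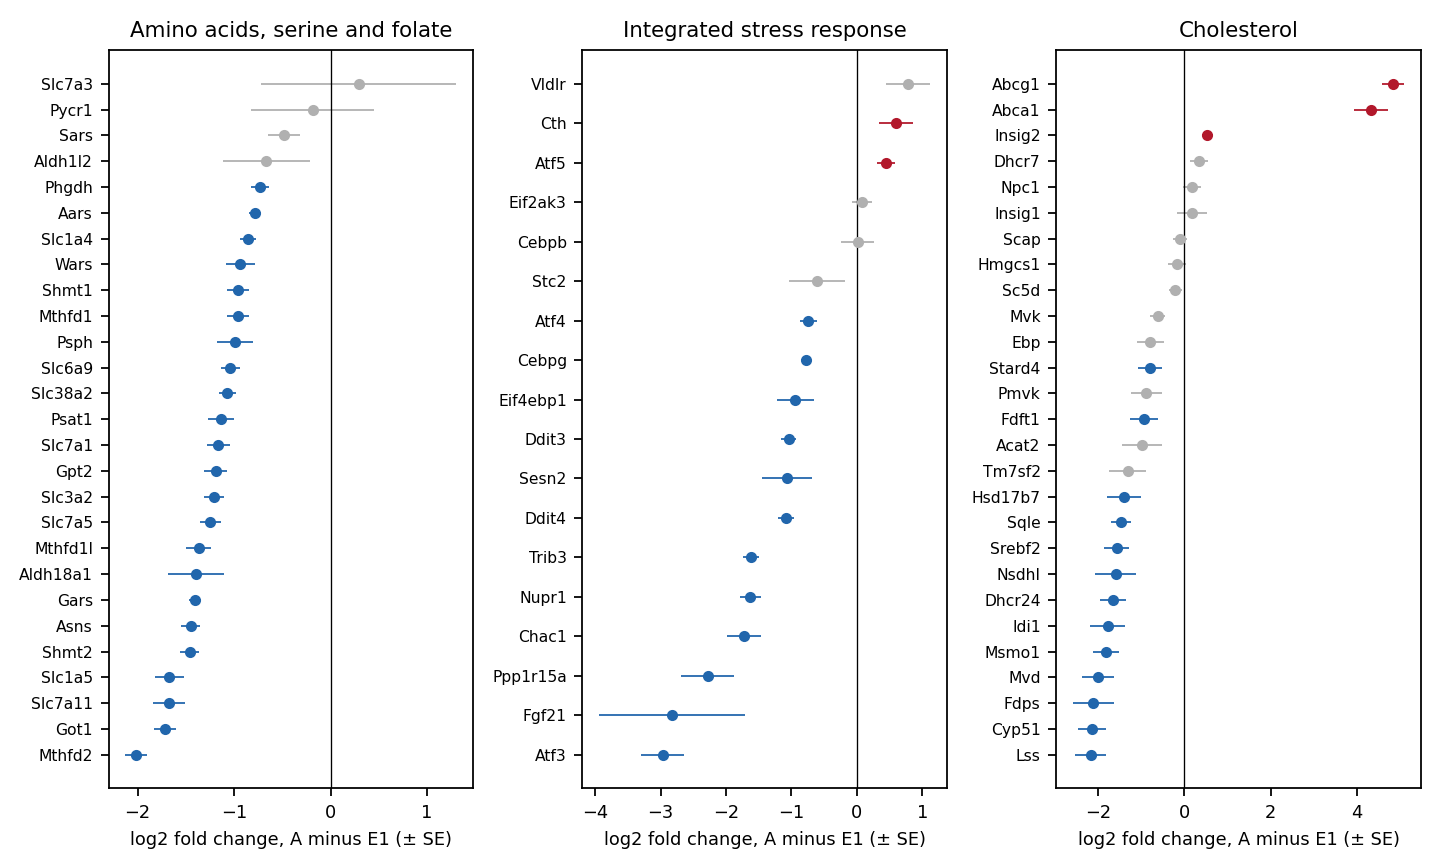
Log2 fold changes of A over E1 with their standard errors for the tested members of the amino acid, stress response and cholesterol lists, 3 libraries a clone. Blue points are called lower in A, red higher and grey not called. In the amino acid list 23 of 27 points are blue and none is red, and Abca1 and Abcg1 stand apart at the top of the cholesterol panel, which draws 27 of the 29 tested members.

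Of 29 tested cholesterol genes 14 were lower in A and 3 higher, with a median of -0.93. Lss, lanosterol synthase, gave 2.62, 4.50 and 2.55 CPM in the A libraries and 10.2, 17.0 and 17.0 CPM in the E1 libraries. For Lss the log2 fold change was -2.17 ± 0.36 (adjusted p = 2.29e-05). Cyp51, which demethylates lanosterol, gave 10.1, 13.6 and 9.75 CPM in the A libraries and 31.7, 57.9 and 57.6 CPM in the E1 libraries. For Cyp51 the log2 fold change was -2.13 ± 0.33 (adjusted p = 1.51e-05). The groups did not overlap, although the E1 libraries spread more than those of A. Fdps, which makes farnesyl pyrophosphate (11.4 ± 4.67 CPM in A and 49.5 ± 16.2 in E1), and Msmo1, a sterol oxidase (20.2 ± 5.50 CPM in A and 71.4 ± 16.8 in E1), were lower. So was Srebf2, the gene of the controlling factor SREBP2 (18.2 ± 4.28 CPM in A and 54.0 ± 14.2 in E1). Hmgcs1, an early enzyme of the pathway, stood at 32.9 ± 5.46 CPM in A and 36.8 ± 6.70 in E1 and was not called. The exporters of cholesterol were higher, though at low levels. Abca1 had 0 counts in all E1 libraries and 1.03, 0.815 and 2.09 CPM in the A libraries, at least 37.7-fold higher on an allowance of 3 counts over the E1 libraries. Abcg1, with 0 counts in E1, reached 1.59, 1.47 and 2.64 CPM in the A libraries, at least 54.7-fold more on that allowance. Cyp51 differed by -0.21 in A and by 1.92 in E1, each against the parental line. Over the list the median was -0.06 in A and 0.84 in E1.

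Fatty acid genes had 9 of 20 members lower and 4 higher (median -0.54). The desaturase Fads2 (6.04 ± 2.77 CPM in A and 19.1 ± 6.66 in E1), the elongase Elovl1 (3.36 ± 0.938 CPM in A and 7.18 ± 0.404 in E1) and Acsl5, which activates fatty acids (58.9 ± 5.22 CPM in A and 145 ± 15.4 in E1), were lower. Acsl4, which activates arachidonic acid, was higher at 418, 446 and 495 CPM in the A libraries and 185, 284 and 232 CPM in the E1 libraries. For Acsl4 the log2 fold change was 0.95 ± 0.19 (adjusted p = 0.00162). Counts of this list were unsteady: 4 were lower without A replicate 3 or E1 replicate 2, and 2 higher without A replicate 1 or 2 or E1 replicate 2 or 3. Glycolysis had 10 of 22 members lower and 2 higher (median -0.32; 1 higher without A replicate 2). Ldha, lactate dehydrogenase, gave 160.3, 180.3 and 191 CPM in the A libraries and 338, 522 and 509.8 CPM in the E1 libraries. For Ldha the log2 fold change was -1.36 ± 0.22 (adjusted p = 1.41e-06). Pgk1, phosphoglycerate kinase, gave 96.1 ± 18.2 CPM in A and 279.7 ± 62.0 in E1. The hexokinase Hk2 gave 35.6 ± 2.45 CPM in A and 74.5 ± 5.72 in E1 and the regulator Pfkfb3 gave 1.80 ± 0.165 CPM in A and 8.42 ± 2.60 in E1. Ndrg1, a stress and hypoxia gene, was lower at 33.1 ± 7.004 CPM in A and 125 ± 18.2 in E1, yet the hypoxia list had 3 members higher and 3 lower of 20, near the 15% and 14.6% over all genes; 6 were higher in a fit of A and E1 alone. Tfrc, the transferrin receptor that brings in iron, gave 109, 108 and 115 CPM in the A libraries and 234, 428 and 355 CPM in the E1 libraries. For Tfrc the log2 fold change was -1.61 ± 0.26 (adjusted p = 0.00274).

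The called genes of respiration were mostly lower in the nuclear genome and higher in the mitochondrial one, but most nuclear ones were not called. Of 41 nuclear subunits 9 were lower and 1 higher (median -0.20), and 31 were not called. In all, 24.4% of them were called, against 29.6% of all genes. The lower ones included Ndufb9 (6.42 ± 0.661 CPM in A and 24.1 ± 2.20 in E1) and Ndufa9 (4.72 ± 0.837 CPM in A and 9.81 ± 1.09 in E1) of complex I. They also included Cyc1 of complex III (8.86 ± 0.926 CPM in A and 18.2 ± 3.31 in E1) and Cycs, cytochrome c (6.17 ± 1.27 CPM in A and 14.2 ± 1.72 in E1). Ndufb9 and Cyc1 lie on chromosome 15 and Ndufa9 and Cycs on chromosome 6, where lower genes were most frequent, as given below. The higher one, Cox5a, lost its call, with adjusted p up to 0.167, without any 1 of the libraries but A replicate 1. Of the 13 protein genes of the mitochondrial genome 10 were higher and 0 lower, against 15% higher and 14.6% lower over all genes. All 13 had a positive log2 fold change, with a median of 0.70. ND1 of complex I gave 1130.0, 1296 and 1044 CPM in the A libraries and 629, 541 and 969 CPM in the E1 libraries. For ND1 the log2 fold change was 0.70 ± 0.27 (adjusted p = 0.00266), with no overlap. The count fell to 6 without A replicate 2 or E1 replicate 1 and to 5 without E1 replicate 2. ND6 lost its call in these 3 fits (adjusted p up to 0.0744), ATP6 in these and without A replicate 1 (up to 0.131), and COX2 in these and without A replicate 3 (up to 0.169). The share of mitochondrial ribosomal RNA, given above, was higher in every A library than in any E1 library; its part in these values was not tested. Cytosolic ribosomal protein genes had 4 of 41 members higher and 1 lower, under the 15% higher over all genes, with 1 higher without A replicate 2, 2 without E1 replicate 3 and 9 in a fit of A and E1 alone.

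Of 23 genes of the unfolded protein response in the endoplasmic reticulum 10 were higher in A and 2 lower (median 0.45). The main chaperone BiP, coded by Hspa5, was among the lower ones and gave 205, 225 and 231 CPM in the A libraries and 509, 418 and 430.5 CPM in the E1 libraries. For Hspa5 the log2 fold change was -1.04 ± 0.10 (adjusted p = 3e-06), with no overlap. Xbp1, a transcription factor of the response, gave 31.3, 36.1 and 42.5 CPM in the A libraries and 17.8, 12.4 and 12.3 CPM in the E1 libraries. For Xbp1 the log2 fold change was 1.37 ± 0.22 (adjusted p = 1.32e-05). The co-chaperones Dnajb9 (26.4 ± 2.21 CPM in A and 10.8 ± 2.51 in E1) and Dnajc3 (56.6 ± 5.30 CPM in A and 24.8 ± 1.62 in E1) and the secreted factor Manf (21.7 ± 1.07 CPM in A and 9.47 ± 1.71 in E1) were higher. The other lower gene was Herpud1, which acts in the disposal of misfolded proteins (11.1 ± 1.45 CPM in A and 16.1 ± 1.40 in E1). Its call was lost, with adjusted p up to 0.125, without A replicate 1 or 2 or E1 replicate 2 or 3, and 4 genes were lower in a fit of A and E1 alone. For Hspa5, A differed from the parental line by -2.16 and E1 by -1.12 on the log2 scale. For Xbp1 the values were 0.12 and -1.25. The mitochondrial chaperone Hspd1 was lower (263 ± 28.4 CPM in A and 501 ± 14.0 in E1) and the cytosolic Hspa8 higher (392 ± 80.8 CPM in A and 230.0 ± 57.0 in E1).

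Of 22 genes of class I antigen presentation 12 were higher in A and 1 lower, with a median of 1.04. H2-D1, a class I heavy chain, gave 69.7, 73.2 and 89.3 CPM in the A libraries and 31.1, 33.5 and 34.1 CPM in the E1 libraries. For H2-D1 the log2 fold change was 1.23 ± 0.12 (adjusted p = 2e-06). Reads of the H2 genes can be shared between near-identical copies, which makes this value uncertain. B2m, the light chain, gave 108, 121 and 117 CPM in the A libraries and 57.3, 52.6 and 60.9 CPM in the E1 libraries. For B2m the log2 fold change was 1.02 ± 0.08 (adjusted p = 4.1e-06). Nlrc5, the transactivator of these genes, gave 27.7, 18.5 and 25.6 CPM in the A libraries and 10.1, 7.81 and 7.41 CPM in the E1 libraries. For Nlrc5 the log2 fold change was 1.498 ± 0.22 (adjusted p = 2.85e-06). The peptide transporter Tap1 (5.17 ± 0.530 CPM in A and 1.58 ± 0.789 in E1) and the immunoproteasome subunit Psmb8 (7.70 ± 0.547 CPM in A and 2.21 ± 0.349 in E1) were higher, and the peptide editor Tapbpl lower (1.01 ± 0.383 CPM in A and 3.33 ± 0.937 in E1). The number lower was 2 without E1 replicate 1, with a replicate block, with no filter on low counts and in a fit of A and E1 alone. For B2m, A differed from the parental line by 0.51 and E1 by -0.51, and for Nlrc5 by 0.55 and -0.94. Of the interferon-stimulated genes 3 of 25 were higher and 3 lower, shares under those of all genes; 1 was lower without A replicate 1 or E1 replicate 1 or 3. Parp9 (10.9 ± 1.91 CPM in A and 5.25 ± 1.78 in E1) and Dtx3l (32.0 ± 0.964 CPM in A and 19.7 ± 1.91 in E1), partners in a DNA repair and antiviral complex, were higher.

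Secreted immune factors moved each way, 5 of 29 higher and 8 lower, and 5 lower without A replicate 2. Over all genes 15% were higher and 14.6% lower, so the higher share of this list was near that of all genes. The chemokine Cxcl16 gave 5.71, 8.77 and 6.15 CPM in the A libraries and 35.8, 46.7 and 38.4 CPM in the E1 libraries. For Cxcl16 the log2 fold change was -2.54 ± 0.22 (adjusted p = 1.49e-10). Cx3cl1, the membrane-bound fractalkine, gave 12.4, 10.1 and 7.78 CPM in the A libraries and 1.66, 0.372 and 0.568 CPM in the E1 libraries. For Cx3cl1 the log2 fold change was 3.40 ± 0.62 (adjusted p = 0.00012). Il23a, an interleukin 23 subunit (4.82 ± 0.106 CPM in A and 17.1 ± 5.45 in E1), and the lymphatic growth factor Vegfc (2.22 ± 1.00 CPM in A and 6.55 ± 0.630 in E1) were lower. Of 13 checkpoint genes 5 were higher and 3 lower, 3 higher without A replicate 3 or E1 replicate 2. Cd47, the signal that restrains phagocytes, gave 148, 149.6 and 147 CPM in the A libraries and 69.2, 67.1 and 61.9 CPM in the E1 libraries. For Cd47 the log2 fold change was 1.16 ± 0.05 (adjusted p = 6.28e-07). Nt5e, the ectoenzyme CD73 that makes adenosine, was higher at 118 ± 5.47 CPM in A and 41.9 ± 4.01 in E1. The galectin Lgals1 was lower at 67.1 ± 8.90 CPM in A and 128 ± 20.7 in E1 and the poliovirus receptor Pvr at 43.3 ± 11.4 CPM in A and 75.8 ± 16.9 in E1.

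Myc was lower in A, at 34.2, 40.9 and 37.6 CPM in the A libraries and 175, 144 and 139 CPM in the E1 libraries. For Myc the log2 fold change was -2.02 ± 0.13 (adjusted p = 1.7e-10). Its level in the parental line was 193 CPM, so that A was lower by -2.36 and E1 differed by -0.34. Ccnd1, cyclin D1, was higher at 822, 793 and 717 CPM in the A libraries and 478, 468 and 422 CPM in the E1 libraries. For Ccnd1 the log2 fold change was 0.77 ± 0.08 (adjusted p = 0.000106). Klf6, a zinc finger factor of the early response, was lower at 146 ± 7.78 CPM in A and 305 ± 25.6 in E1. Fosb, an AP-1 subunit, was higher at 16.9 ± 4.82 CPM in A and 2.21 ± 0.669 in E1. All 23 tested genes of G2 and mitosis had a negative log2 fold change, with a median of -0.62, and in 17 of them the groups did not overlap, against 47.1% of all genes, but 5 of the 23 were called, against 14.6% called lower over all genes. The called ones were the mitotic activator Cdc20 (6.23 ± 0.912 CPM in A and 16.4 ± 2.00 in E1), the kinase Aurka (8.94 ± 0.725 CPM in A and 21.4 ± 5.07 in E1), the ubiquitin enzyme Ube2c (9.71 ± 0.767 CPM in A and 23.2 ± 3.62 in E1), and 2 others. Cdk1, the mitotic kinase, gave 30.3 ± 4.48 CPM in A and 43.9 ± 3.13 in E1, and the transcription factor Foxm1 gave 18.01 ± 1.55 CPM in A and 46.0 ± 8.63 in E1. Foxm1 lost its call with a replicate block and without any 1 library but E1 replicate 1 (adjusted p up to 0.108), and Cdk1 lost its call without A replicate 2 or 3 or E1 replicate 2 or 3 (up to 0.103). With the A and E1 libraries alone 20 were called, with no filter on low counts 17, and without A replicate 2, E1 replicate 2 or E1 replicate 3 3. Replication-dependent histones had the same shape, 18 of 18 negative with a median of -1.03 and 3 called. Of them 11 were called with A and E1 alone, 10 with no filter, 5 by DESeq2, 6 without robust estimation, and 1 without A replicate 1 or E1 replicate 3. Reads of histone genes can be shared between copies. Genes of DNA synthesis had 3 of 20 members higher, the share over all genes being 15%, and 0 lower. The higher ones included the helicase subunit Mcm4 (67.4 ± 7.11 CPM in A and 40.2 ± 1.13 in E1) and the replication factor Gins2 (6.28 ± 0.7997 CPM in A and 2.33 ± 0.801 in E1); 3 were lower in a fit of A and E1 alone.

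Lysosomal and autophagy genes had 12 of 26 members higher and 3 lower (median 0.56; 1 lower without A replicate 1 or E1 replicate 1). Examples were Psap, the saposin precursor (205 ± 33.1 CPM in A and 105 ± 4.93 in E1), and the autophagosome marker Map1lc3b (23.8 ± 1.29 CPM in A and 12.7 ± 0.471 in E1). Genes of YAP and its targets gave 5 higher and 6 lower of 20, against 15% higher and 14.6% lower over all genes. The co-activator Wwtr1, also called TAZ, was higher (232 ± 19.4 CPM in A and 112 ± 2.14 in E1). So were its DNA-binding partner Tead2 (32.0 ± 2.57 CPM in A and 12.4 ± 0.743 in E1) and Amotl1, which holds YAP in the cytoplasm (653 ± 31.2 CPM in A and 266 ± 7.95 in E1). Among the most abundant genes with at least 2-fold changes, the ubiquitin ligase Nedd4 gave 785, 764 and 782 CPM in the A libraries and 318, 252 and 286 CPM in the E1 libraries. For Nedd4 the log2 fold change was 1.44 ± 0.10 (adjusted p = 1.37e-08). The phosphohydrolase Nudt4 was higher at 488 ± 44.1 CPM in A and 227 ± 12.3 in E1. Lower were the translation factor Eif5a (274 ± 12.8 CPM in A and 549.7 ± 41.5 in E1) and Fam91a1, a protein of the trans-Golgi (126 ± 4.25 CPM in A and 334 ± 8.73 in E1). Among small structured RNAs, Rn7sk, which holds the elongation factor P-TEFb in check, was higher at 4376, 4094 and 5800.0 CPM in the A libraries and 2014, 2464 and 1821 CPM in the E1 libraries. For Rn7sk the log2 fold change was 1.18 ± 0.20 (adjusted p = 0.00529). The Y RNA Rny1, which binds the Ro protein, was lower at 7.94, 9.85 and 6.64 CPM in the A libraries and 76.5, 128 and 72.2 CPM in the E1 libraries. For Rny1 the log2 fold change was -3.49 ± 0.31 (adjusted p = 3.77e-05). These RNAs have many near copies in the genome, which makes their counts uncertain.

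Over all genes 15% were higher and 14.6% lower, the shares to set beside the lists that follow. Among stress lists, targets of p53 had 2 of 16 members higher and 6 lower. Besides Plk2, the exonuclease Aen was lower (2.29 ± 0.301 CPM in A and 6.01 ± 2.26 in E1). Trp53inp1, which acts in cell death and autophagy, was higher (31.9 ± 4.71 CPM in A and 8.60 ± 1.71 in E1). So was Phlda3, an inhibitor of AKT (9.91 ± 1.83 CPM in A and 5.25 ± 1.62 in E1), whose call was lost, with adjusted p up to 0.119, without A replicate 3 or E1 replicate 3. Genes of the antioxidant factor NRF2 and of glutathione had 4 of 26 members higher, near the share over all genes, and 6 lower, with a median of -0.02. Txnrd1, thioredoxin reductase, gave 80.5, 81.0 and 79.2 CPM in the A libraries and 123, 171 and 134 CPM in the E1 libraries. For Txnrd1 the log2 fold change was -0.83 ± 0.14 (adjusted p = 0.000203). Pgd, an enzyme of the pentose phosphate pathway, was lower at 10.4 ± 1.48 CPM in A and 20.2 ± 3.23 in E1. Progenitor and drug efflux genes had 5 of 15 members higher and 4 lower, with 3 higher and 2 lower without A replicate 3 and 2 lower without E1 replicate 1. Sox4, a transcription factor of progenitor cells, gave 116, 142 and 139 CPM in the A libraries and 71.7, 83.1 and 73.6 CPM in the E1 libraries. For Sox4 the log2 fold change was 0.80 ± 0.11 (adjusted p = 7.47e-05). The efflux transporter Abcc4 was lower at 5.08 ± 0.833 CPM in A and 14.5 ± 1.23 in E1.

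**Figure D4:**
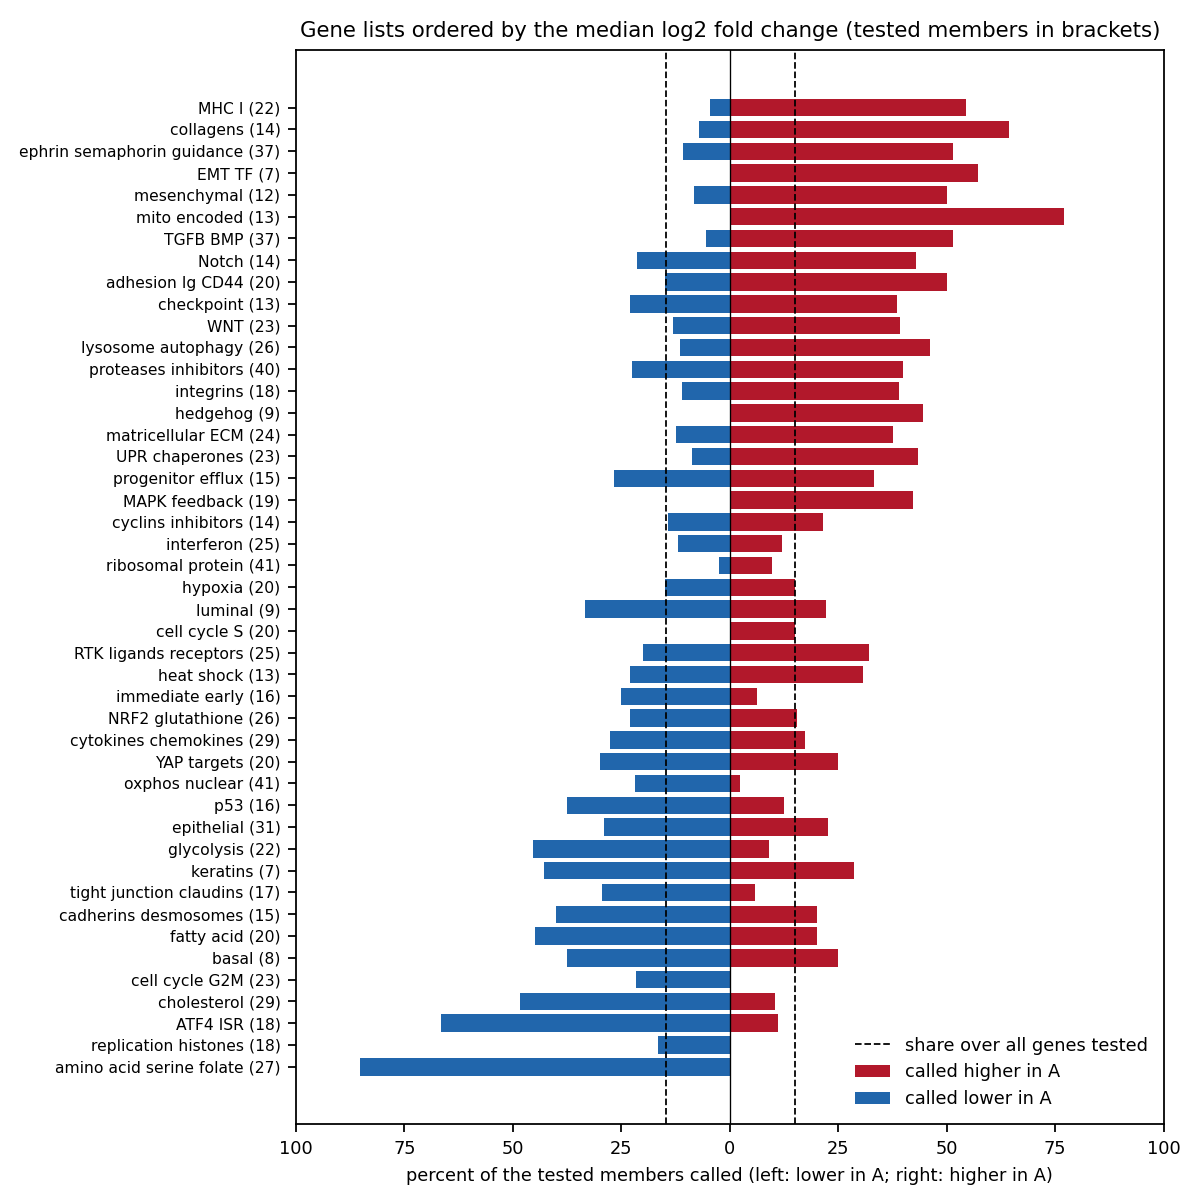
Percent of the tested members of each gene list called higher (right, red) or lower (left, blue) in A, for lists with at least 7 tested members, ordered by the median log2 fold change. Dashed lines give the shares over all genes tested, 15% higher and 14.6% lower; the amino acid list reaches furthest to the left and the mitochondrial protein genes furthest to the right.

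Differences were not spread evenly over the chromosomes. On chromosome 9, 285 of 718 tested genes were higher in A (39.7%) and 23 lower (3.2%), against 13.5% higher and 15.3% lower among all other genes. Its median log2 fold change was 0.55, between 0.52 and 0.59 over the alternative analyses, and the windows of 10 Mb along it with 20 or more tested genes had medians from 0.27 to 0.96. The highest was that from 90 to 100 Mb, where 25 of 43 genes were higher and 1 lower. Against the parental line the median of chromosome 9 was 0.25 in A and -0.34 in E1. Of the genes described above, Smad3, Mmp3, Lamb2, Sema7a, Nedd4, Amotl1, Ctnnb1, Nt5e, Cdon, Hspa8, Manf, Tgfbr2, Cox5a and Rn7sk, all higher in A, and Col12a1, lower in A, lie on it. Of the 19 genes of the TGF-beta list called higher 4 lie there, as do 5 of the 16 of the protease list and 4 of the 19 of the guidance list. Lower genes were most frequent on chromosome 6, 153 of 589 (26%) with a median of -0.26, and on chromosome 15, 126 of 486 (25.9%) with a median of -0.19. Described genes lower in A on chromosome 6 include Asns, Mthfd2, Hk2, Wnt7a, Ndufa9, Cycs, Foxm1 and Rny1. Aqp1, Adamts9, Ephb6 and Plxnd1, higher in A, also lie there. Those lower in A on chromosome 15 include Myc, Ndrg1, Ndufb9, Cyc1, Gcat, Slc38a2, Lgals1 and Fam91a1. Fbln1, Ank, Krt8, Krt18 and Itga5, higher in A, lie on chromosome 15 too. On chromosome 15 the window from 50 to 60 Mb, which holds Fam91a1 and Ndufb9, had 16 of 36 genes lower and a median of -0.56. Relative to the parental line the median of that window was -0.91 in A and -0.33 in E1. Over all 213 windows of the genome medians ran from -0.79 to 0.96, and from -0.23 to 0.26 between their 10th and 90th percentiles. The lowest window, from 20 to 30 Mb on chromosome 13, holds a cluster of histone genes. RNA counts do not give DNA copy number, which was not analysed here.

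**Figure D5:**
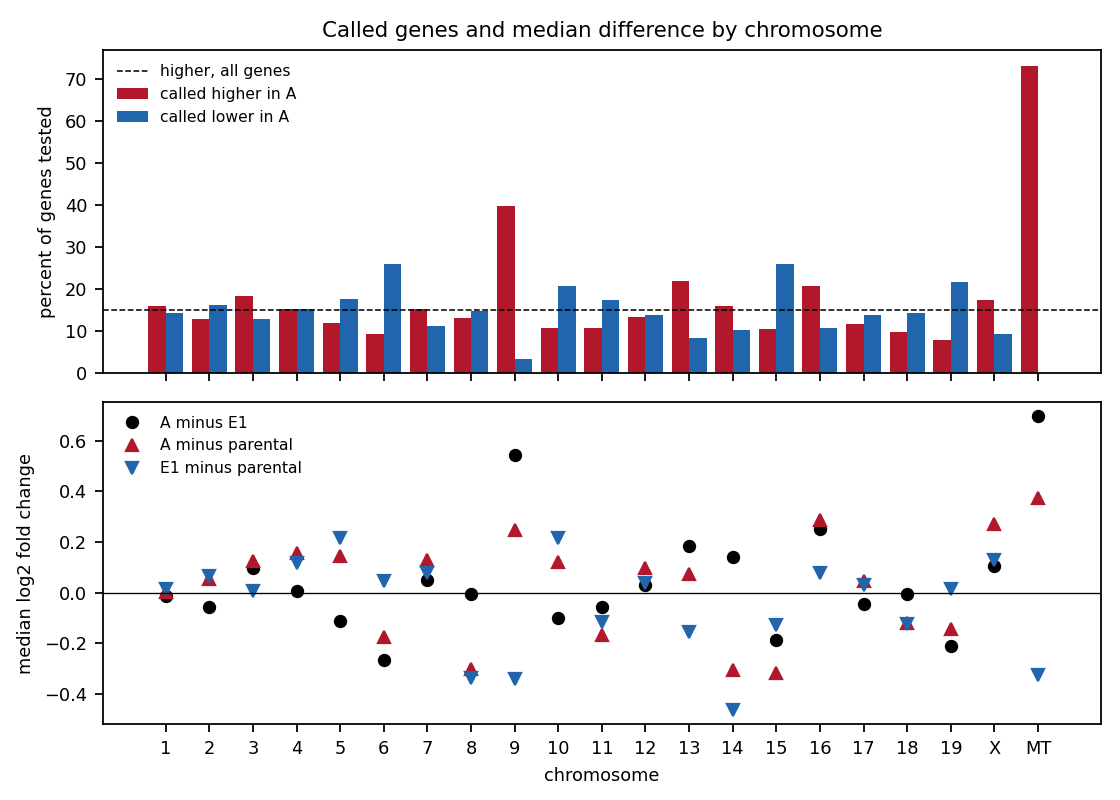
Top, percent of the tested genes of each chromosome called higher (red) or lower (blue) in A, with the share higher over all genes as a dashed line. Bottom, median log2 fold change of each chromosome for A minus E1, A minus parental and E1 minus parental. Among the nuclear chromosomes, chromosome 9 stands out in the top panel and in the A minus E1 points of the bottom one. The 15 tested genes of the mitochondrial genome (MT) lie above it.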

How the data were processed

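RNA of the A and E1 clones, of the parental line and of 2 other clones was sequenced from directional libraries, with 3 biological replicates of each per the labels. Per the submitters' processing notes the authors used HISAT2, featureCounts and DESeq2 with the builds GRCm38 and mm10; the deposited values are raw counts per Entrez gene, and versions and the strand setting are not given in the sources used here. Without a stated strand setting, reads of overlapping antisense genes cannot be told apart.

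All 15 libraries were fitted together with edgeR 4.0.16 in R 4.3.3: filterByExpr (minimum count 10, minimum total 15), TMM scaling, robust quasi-likelihood fit, prior count 2 and Benjamini-Hochberg adjustment over the 12712 genes tested. The contrast was A minus E1. The same fit was also run on counts simulated from the means and dispersions of these libraries, with results not given here. CPM use the TMM library sizes, and the SE of a log2 fold change comes from the spread of log2 CPM over 3 libraries a clone. Depth was 20143111 to 33141271 counts per library; intervals and floors for counts of 0 cover counting error only.

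The groups come from the labels; the gene lists and the rule for named genes were chosen with earlier results of these data known. The rule took called genes with a symbol, at least 5 CPM in the higher clone and no overlap between clones: the 15 largest changes and the 8 most abundant 2-fold changes in each direction, up to 4 called members of each list, and all luminal, basal and transition factor genes. These genes outside it were named after their values were seen: Abca1, Abcg1, Asns, Atf4, Atf5, Axl, B2m, Cdk1, Cebpb, Cox5a, Cth, Ctsb, Ddr2, Eif2ak3, Epcam, F3, Fgfr2, Fstl1, Herpud1, Hmgcs1, Inhba, Itga2, Itgav, Itgb1, Itgb6, Met, Mmp9, Nrp1, Runx2, Srebf2, Tapbpl, Tgfb1, Tgfbr1, Tgfbr2, Thbs1 and Timp2. Alternatives were DESeq2 1.42.0, RLE size factors, no filter or a filter of 1 CPM in 3 libraries, no robust estimation, A and E1 alone, a replicate block, the 6 genes with the most counts left out, and each library left out. Promoter letters and sequences are from RefSeq, GRCm38.p6. A few list members are not reported here by name, though they count in their lists.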

Additional observations from a re-analysis of the deposited data

How the results depend on the processing

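The number of genes called between A and E1 stayed within 1.5 times of 3767 in all alternatives, and no gene called in the comparison was called in the opposite direction in any of them. It was 4539 with the A and E1 libraries alone, 4023 with DESeq2, 3848 with no filter on low counts, 3773 without the 6 genes with the most counts, 3770 without robust estimation, 3763 with RLE size factors and 3719 with the filter of 1 CPM in 3 libraries. Leaving out a library gave 2952 to 3145 calls, 1499 to 1626 higher and 1453 to 1531 lower in A, and 1558 to 1670 at 2-fold or more. Same-numbered replicates of A and E1 showed little joint deviation (correlations of their deviations 0.06, -0.01 and 0.04). Pairs with different numbers gave -0.08 to 0.04. With 3 libraries a clone these values cannot show whether the numbers pair the samples. A fit with a replicate block called 4104 genes, 2063 higher and 2041 lower. The share of calls that were higher in A, 50.57%, ran from 47.95% with no filter to 52.15% with DESeq2. Of the genes named by the rule, those with the 15 largest and the 8 most abundant changes kept their calls in all 14 alternatives, while 16 of the named genes lost theirs in at least 1. The number of lower genes of G2 and mitosis ran from 3 to 20 and that of lower histone genes from 1 to 11; the cause was not tested. At this depth 3 counts over a clone, the limit that a count of 0 allows, correspond to 0.0322 CPM in A and 0.0348 CPM in E1.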
